A study of Homo sapiens with 4 samples.

Results

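Wells in which mitochondrial transcripts held 40% or more of all counts were examined as a group in single MCF10A cells. MCF10A is an untransformed human mammary epithelial cell line that is often used as a model of epithelial-mesenchymal transition (EMT). Members were selected on measured values: a well had to show between 2000 and 9000 rows (genes and spike-ins) with a count above 0. Rows named MT- also had to make up at least 40% of its counts, which is the limit in the study's stated filter. The rule found 167 wells among 1536 wells on 4 plates, and 1146 wells in the same feature range under 40% served for comparison. The study reports more analysed transcriptomes than there are wells in this feature range here, so which members it removed is not known. The 4 plates of 384 wells came from circular patches of MCF10A cells carrying a green fluorescent histone marker, and every patch grew for 6 days in the same medium on fibronectin-coated glass before phototagging. In the low-resolution experiment (replicates 1 and 2), 3 concentric rings of 1000 to 1500 μm were tagged, and in the high-resolution experiment (replicates 1 and 2) the bands at the edge were 250 μm wide. All patches came from 1 cell line, with no treatment added besides the phototagging. For this, every patch was incubated with photoactivatable dyes and the tagged bands were lit to activate them. Cells were sorted as live by exclusion of the dye Draq7. Where in its patch a cell lay, and so whether it had been lit, was not used here. The plate is the replicate, since the wells of a plate share a patch and a library, and the deposited plate totals ran from 11709600 to 14992300 counts.

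Human mitochondrial DNA encodes 13 proteins of the respiratory chain and ATP synthase together with ribosomal and transfer RNAs, while all other proteins of the organelle are encoded in the nucleus. Its transcripts are polyadenylated and are captured beside nuclear messenger RNA. A high mitochondrial share is a customary reason to discard a cell in single-cell sequencing, because cytoplasmic RNA can leak from a damaged cell while mitochondria stay behind. Epithelial cells also differ in mitochondrial content with their size, metabolism and stage of differentiation.

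The members made up 41 of 332 wells in the feature range on the plate of low-resolution replicate 1 and 50 of 321 on that of low-resolution replicate 2. They made up 43 of 334 on high-resolution replicate 1 and 33 of 326 on high-resolution replicate 2. The share of wells was thus 12.3% (95% exact binomial interval 9.01 to 16.4), 15.6% (11.8 to 20.0), 12.9% (9.48 to 16.9) and 10.1% (7.07 to 13.9), with intervals that cover counting error only and overlap across the plates. Median mitochondrial shares of the members were 53.8%, 44.8%, 45.8% and 43.3% in the same order, against 29.7%, 31.2%, 29.8% and 28.4% in the comparison wells. Members stood at the upper end of a continuous range: 72 of them lay between 40% and 45%, 37 between 45% and 50%, and 58 at 50% or more. The lowest shares inside the limit were 41.16%, 40.03%, 40.34% and 40.10%, and the highest outside it were 39.97%, 39.93%, 39.87% and 39.55%. Members held between 12.3% and 18.8% of all mitochondrial counts of the wells in range, but only 6.22% to 10.8% of the other counts.

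The label fits the rows that define it, which are no test because the rule used them. MT-CO1, a catalytic subunit of cytochrome c oxidase, stood at 43295 to 50834 CPM (counts in every 1000000 counts), here relative to all counts, in the members of the 4 plates and at 26930 to 28943 in the comparison wells. MT-ND4, a complex I subunit, and MT-CYB, the cytochrome b of complex III, were likewise higher on each plate. Keratins of MCF10A cells were found in both classes, but not at equal levels. KRT5, a basal keratin, had 1845 to 2716 CPM relative to non-mitochondrial counts in the members and 2491 to 3239 in the comparison wells, and KRT7, a simple epithelial keratin, had 4428 to 5712 against 3686 to 5501. The basal keratin KRT14 (48.8 to 239 against 147 to 465 CPM) and the luminal keratin KRT18 (99.3 to 143 against 162 to 222 CPM) were lower in the members on 4 of 4 plates. Other luminal keratins went the other way: KRT8 (832 to 1129 against 640 to 758 CPM) and KRT19 (10.9 to 36.9 against 5.01 to 12.5 CPM) were higher on 4 of 4 plates. The basal keratin KRT17 (703 to 1620 against 599 to 919 CPM) was lower on high-resolution replicate 1 and higher on the other plates. TP63, a basal transcription factor, was nearly absent from both classes, with at most 4.76 CPM. Defining markers of other cell types were low or at 0. The endothelial genes VWF and CDH5 and the fibroblast genes COL3A1, PDGFRB and DCN had 0 counts in the members of all plates, the immune gene PTPRC reached at most 2.07 CPM, and the haemoglobin gene HBB at most 8.33. PECAM1, an endothelial adhesion molecule, had 8.27 to 43.6 CPM in the members and 19.9 to 29.6 in the comparison wells, COL1A1, a fibroblast collagen, 12.4 to 23.8 against 8.77 to 12.4, and CD68, a macrophage protein, 9.34 to 18.6 against 8.77 to 12.4. The immune marker LYZ had 0 to 10.7 CPM in the members against 0.501 to 3.31. It was lower in the members on high-resolution replicate 2 and higher on the other plates.

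Spike-in RNA, which is added to every well in the same amount, separated RNA content from composition. Median spike-in counts of the members were 392, 441, 291 and 380 on low-resolution replicates 1 and 2 and high-resolution replicates 1 and 2, against 396, 442, 302 and 390 in the comparison wells, so recovery of the spike-ins was nearly equal. Non-mitochondrial counts per spike-in count had medians of 25.8, 40.7, 43.9 and 52.0 in the members and 52.3, 51.4, 89.9 and 85.0 in the comparison wells. The ratio of medians averaged 0.597 ± 0.143 (SD, n = 4 plates). Mitochondrial counts per spike-in count had medians of 33.4, 34.6, 43.7 and 41.2 against 22.9, 23.5, 36.8 and 33.2, with a mean ratio of 1.34 ± 0.148 (SD, n = 4 plates). A typical member thus held less non-mitochondrial RNA and somewhat more mitochondrial RNA than a typical comparison well. Both quantities enter the share that chose the wells, so these ratios are descriptions without a test. In absolute numbers the median well had 10796, 16369, 14242 and 17618 non-mitochondrial counts among the members and 20866, 22794, 25442 and 29138 in the comparison wells, a mean ratio of 0.600 ± 0.0864 (SD, n = 4 plates).

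**Figure D1:**
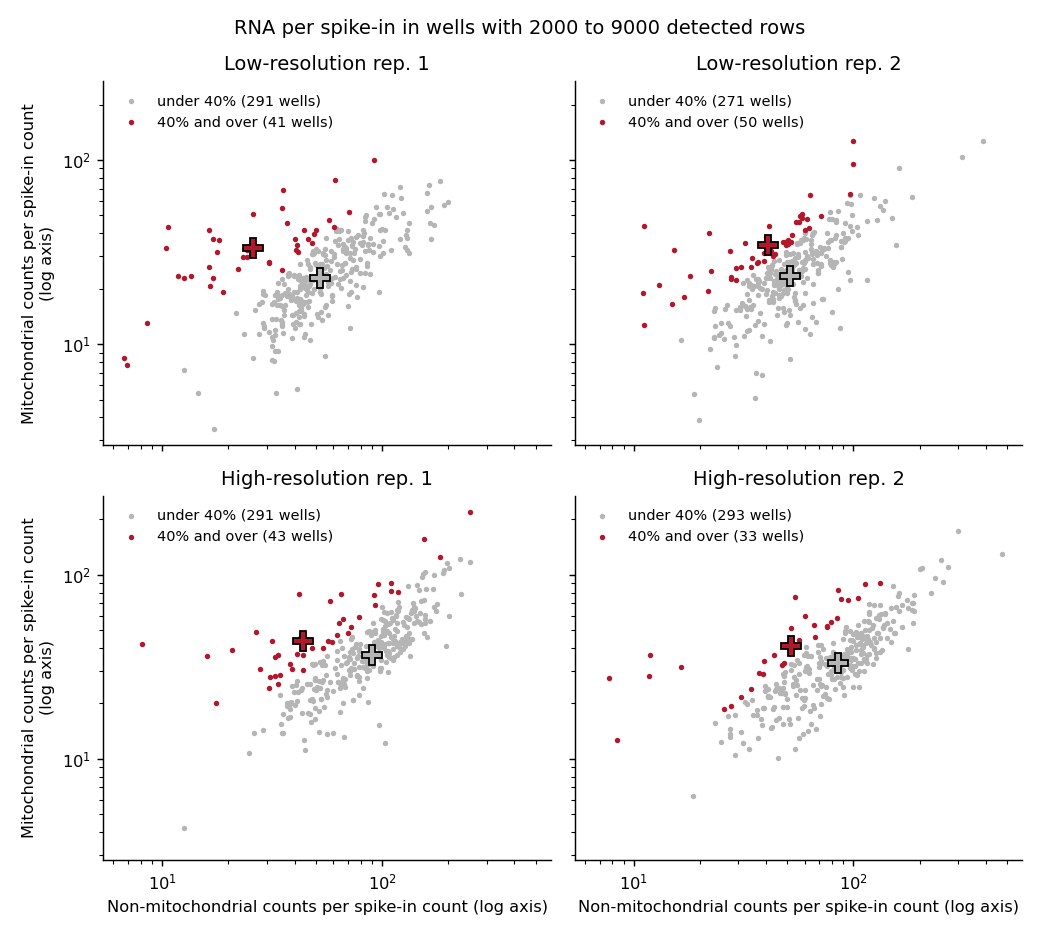
Mitochondrial against non-mitochondrial counts per spike-in count for each well with 2000 to 9000 detected rows, on log axes, 1 panel per plate. Red points are wells at 40% and over, grey points are wells under 40%, and crosses mark the medians. The red cross lies to the left of the grey one on every plate and above it on every plate, and the members spread from wells with few non-mitochondrial counts per spike-in to wells as rich as the comparison wells.

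Members at 50% and over differed in RNA content from those between 40% and 50%. In the 109 wells between 40% and 50% the plate medians averaged 51.5 ± 7.99 non-mitochondrial and 40.2 ± 5.51 mitochondrial counts per spike-in count (SD, n = 4 plates). In the 58 wells at 50% and over they averaged 19.7 ± 8.69 and 33.3 ± 6.56. The 590 wells under 30% had 76.8 ± 22.4 and 26.5 ± 8.66, so at the upper end the share came with a far lower non-mitochondrial level, and between 40% and 50% with a moderately lower non-mitochondrial and a higher mitochondrial level. The highest range held 24, 14, 14 and 6 wells per plate and is the thinnest.

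Within the mitochondrial counts the composition was nearly the same in both classes. MT-ATP6, a subunit of ATP synthase, had the largest share of mitochondrial counts with 15.5% ± 0.542 in the members and 15.7% ± 0.700 in the comparison wells (SD, n = 4 plates). MT-ND4 followed with 13.2% ± 0.439 and 13.04% ± 0.709, and MT-RNR2, the large ribosomal RNA, with 12.1% ± 1.48 and 12.5% ± 0.812. MT-CYB had 9.90% ± 0.537 against 9.24% ± 0.167, higher in 4 of 4 plates, and MT-CO2, a second core subunit of cytochrome c oxidase, had 8.96% ± 0.336 against 8.27% ± 0.275, also higher in 4 of 4. MT-RNR1, the small ribosomal RNA, had 3.29% ± 0.295 against 3.97% ± 0.587 and was lower in 4 of 4 plates. The transfer RNA rows together had 0.210% ± 0.0270 against 0.268% ± 0.0258 and were also lower in 4 of 4. A two-sided exact sign-flip permutation test over the plates gave p = 0.13 for each of these 4, the smallest value that 4 plates allow, so none could pass a threshold of 0.05 with or without adjustment. Per spike-in count, the ratio of members to comparison wells ranged over the plates from 1.26 to 1.47 for MT-CO1, from 1.40 to 1.48 for MT-CYB and from 0.947 to 1.38 for MT-RNR1.

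Members showed as many genes per well as comparison wells once depth was equalised. At 5000 non-mitochondrial unique molecular identifiers (UMIs) per well, drawn at random, the members had median numbers of 2429, 2347, 2375 and 2367 genes and the comparison wells 2383, 2342, 2341 and 2336. The difference of medians was 29 ± 17.3 genes (SD, n = 4 plates) and positive on 4 of 4 plates (two-sided exact permutation test, p = 0.13, the smallest possible). At 2500 UMIs it was 8.75 ± 20.4 (exact permutation p = 0.750). The depth of 5000 left out 19 members and 5 comparison wells.

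For gene expression, all mitochondrial and spike-in rows were removed, counts were summed per plate and class, and both classes of a plate were compared in 1 edgeR fit with the plate as a block. The values below are CPM relative to non-mitochondrial counts, so a change is relative to the remaining RNA of the cells. For single genes by plate the library sizes were scaled by TMM (trimmed mean of M-values), and for sums of lists and for ranges of the share they were not. Of 11385 genes tested, 1415 (12.4%) were higher and 1475 (13%) were lower in the members at a Benjamini-Hochberg adjusted p under 0.05, with a median log2 fold change over all genes of 0.02. After each well was thinned to 5000 UMIs, 499 of 8177 genes (6.1%) were higher and 549 (6.71%) lower. Against comparison wells matched one by one in non-mitochondrial UMIs, 493 of 7878 (6.26%) were higher and 495 (6.28%) lower. Differences were thus found in each of these comparisons, with fewer calls after thinning and after matching. Both also used fewer counts and tested fewer genes, and whether that set the number of calls was not tested. Against comparison wells under 30% alone, 1958 of 10194 genes were higher and 1847 lower, more than against all comparison wells. How much of each difference goes with the lower RNA content of the members was not tested further.

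Among the 10 genes with the largest rises, SPRR1B, IVL and LCN2 are on the list of squamous genes and the others are on no list. SPRR1B on chromosome 1, a cross-linked component of the cornified envelope of squamous cells, had 253, 304, 796 and 352 CPM in the members and 120, 88.8, 94.6 and 52.6 CPM in the comparison wells of low-resolution replicates 1 and 2 and high-resolution replicates 1 and 2. All members' sums lay above all comparison sums, and the log2 fold change was 2.21 ± 0.21 (SE, adjusted p = 5.39e-07 in edgeR). IVL, involucrin, another envelope precursor, had 56.8, 65.9, 58.8 and 178 CPM against 23.2, 32.0, 19.9 and 13.8 CPM, a log2 fold change of 1.97 ± 0.30 (SE, adjusted p = 7.05e-05 in edgeR). LCN2, an iron-carrier binding protein of epithelial secretions, rose by 1.72 ± 0.26 and GCNT3, a mucin-type glycosyltransferase, by 1.71 ± 0.15 on the log2 scale (SE). The other members of the 10 largest rises were CYP4Z1, MYH14, SYTL2, SLC6A14, TMC4 and MACC1, with log2 fold changes between 1.72 and 2.12. In each of these genes the sums of the 2 classes did not overlap across plates. The genes were chosen for large rises found on every plate, which favours this, so it is no separate support.

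The 10 genes with the largest falls included matrix and surface genes, mitotic genes and a metallothionein. POSTN, the matrix protein periostin, had 0, 3.59, 56.2 and 6.40 CPM in the members against 41.5, 56.9, 201 and 145 CPM, a log2 fold change of -2.81 ± 0.30 (SE, adjusted p = 1.38e-06 in edgeR), and its sums overlapped between classes across plates. AXL, a receptor tyrosine kinase linked to EMT, had a log2 fold change of -2.35 and NT5E, the surface enzyme CD73, of -2.20. VIM, the intermediate filament vimentin, had 92.0, 13.2, 33.4 and 27.2 CPM against 117, 100, 185 and 230 CPM, a log2 fold change of -2.03 ± 0.28 (SE). The members of low-resolution replicate 1 were close to their comparison wells in VIM, while those of the other 3 plates were far below. MT2A, a metallothionein that binds zinc and copper and is encoded in the nucleus, had 799, 484, 1381 and 990 CPM against 2664, 2651, 4702 and 4721 CPM, a log2 fold change of -2.05 ± 0.12 (SE, adjusted p = 2.26e-09 in edgeR). The mitotic genes CDK1, PLK1, TOP2A, CCNB2 and CENPF completed the 10 largest falls, with log2 fold changes between -2.41 and -2.03.

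**Figure D2:**
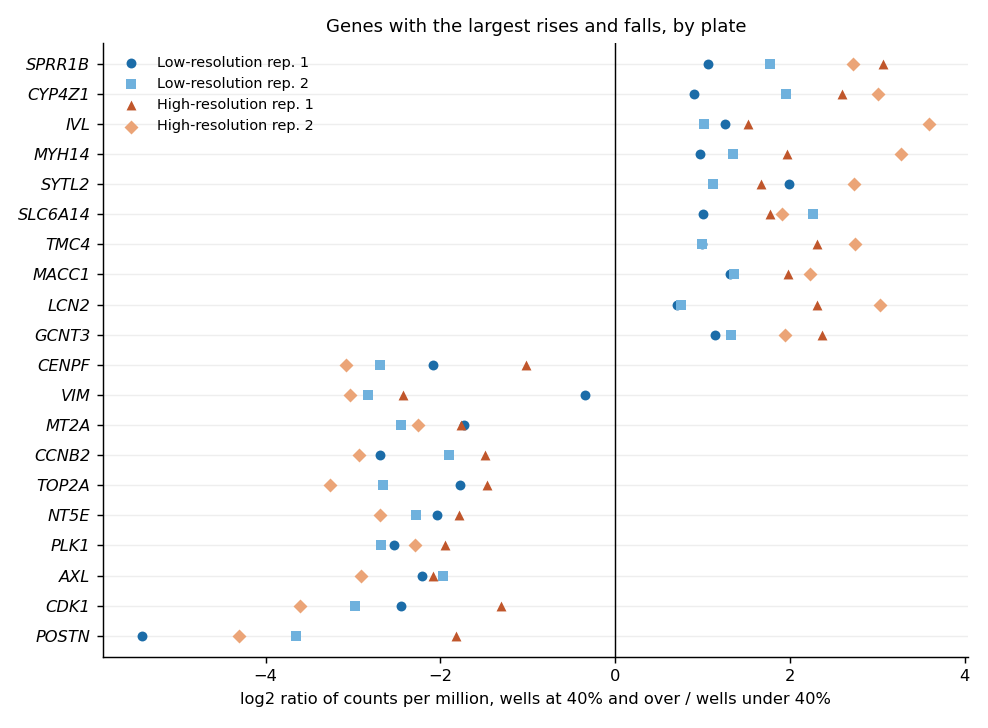
The log2 ratio of CPM between wells at 40% and over and wells under 40% for the 10 genes with the largest rises and the 10 with the largest falls, 1 point per plate. Each gene lies on the same side of 0 on the 4 plates, and the point of POSTN for low-resolution replicate 1 rests on no count among the members and depends on the prior count used for the ratio.

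The members were shifted towards the epithelial end of the EMT axis. Cell-cell adhesion and epithelial identity genes are lost during EMT and cytoskeletal and matrix genes are gained, and the epithelial and mesenchymal lists that the study used follow this division. Of 57 epithelial genes tested, 42 rose, 1 fell (SORD, a polyol dehydrogenase) and 14 did not pass, with a median log2 fold change of 0.87 against 0.02 over all genes. In depth-matched wells 31 of 50 rose and none fell, with a median of 0.71. CDH1, the adhesion molecule E-cadherin, had 217, 230, 146 and 229 CPM in the members and 103, 103, 65.8 and 63.3 CPM in the comparison wells (log2 fold change 1.31 ± 0.13, SE). EPCAM, another epithelial adhesion molecule, rose less, by 0.48 ± 0.12 on the log2 scale (SE, adjusted p = 0.00444 in edgeR), and ELF3, an epithelial transcription factor, rose by 1.64 ± 0.18.

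Of 56 mesenchymal genes, 31 fell, 1 rose (CYP1B1, a xenobiotic-metabolising enzyme) and 24 did not pass, with a median log2 fold change of -0.85. In depth-matched wells 19 of 33 fell and 1 rose, with a median of -0.80. FN1, fibronectin, had 260, 214, 649 and 139.2 CPM against 728, 614, 1170 and 1119 CPM (log2 fold change -1.64 ± 0.20, SE), and ZEB1, ZEB2, SNAI2 and TWIST1, transcription factors that drive EMT, were all among the genes that fell. An EMT score at 5000 UMIs, the mean z-score of mesenchymal minus that of epithelial genes, averaged -0.351, -0.430, -0.562 and -0.753 over the members and 0.0401, 0.0751, 0.0734 and 0.0774 over the comparison wells. The difference was -0.590 ± 0.188 (SD, n = 4 plates), lower in the members on 4 of 4 plates (two-sided exact permutation test, p = 0.13, the smallest possible). Of the 148 members with 5000 UMIs, 127 scored below the median of the comparison wells of their plate and 101 below its lower quartile. The shift was therefore shared by most members and was not set by a few wells.

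Genes of the cell cycle fell as a block. S-phase genes encode the replication machinery, and G2 and mitosis genes encode the kinases, spindle and kinetochore proteins of division. Of 42 S-phase genes tested 40 fell and none rose, with a median log2 fold change of -1.40, and of 54 G2 and mitosis genes 52 fell and none rose, with a median of -1.76. The genes that did not pass were WDR76, CASP8AP2, CTCF and GAS2L3, named because they are the exceptions. CDK1, the kinase that starts mitosis, had 23.5, 9.58, 46.8 and 12.8 CPM in the members and 133, 82.1, 117 and 167 CPM in the comparison wells (log2 fold change -2.41 ± 0.24, SE). PLK1, a kinase of spindle assembly, had 13.7, 13.2, 34.8 and 28.8 CPM against 83.7, 89.8, 137.5 and 145 CPM. All members' sums of both genes lay below all comparison sums, which their choice among the largest falls favours. The summed G2 and mitosis list stood at 2209, 1369, 2688 and 1714 CPM against 4950, 4003, 5302 and 6014 CPM.

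The fall was smaller at equal depth, by an amount that depended on how depth was equalised. After thinning to 5000 UMIs, 39 of 47 G2 and mitosis genes fell, with a median log2 fold change of -1.39. In the same setting 14 of 31 S-phase genes fell, with a median of -0.91. In wells matched in non-mitochondrial UMIs, 20 of 42 G2 and mitosis genes fell, with a median log2 fold change of -0.79, and 7 of 25 S-phase genes fell, with a median of -0.61, and none rose. CDK1 had a log2 fold change of -1.44 and PLK1 of -0.95 there. UMIs of both lists at 5000 UMIs per well averaged 14.9, 12.2, 20.9 and 13.4 in the members and 14.4, 14.6, 30.7 and 27.5 in the depth-matched wells. The difference of -6.44 ± 6.72 UMIs (SD, n = 4 plates) was smaller than its spread, and it was in the opposite direction on low-resolution replicate 1.

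Against all comparison wells, few members reached a high level of cell cycle UMIs. At 5000 UMIs, the upper quartile of the comparison wells was 34, 29, 58 and 66 UMIs of the S-phase and G2 and mitosis lists combined. Members above that level numbered 3 of 33, 2 of 47, 4 of 38 and 0 of 30, or 9 of 148. The 0 of 30 wells on high-resolution replicate 2 allow a share of up to 11.6% (exact binomial 95% interval, counting error only). Medians differed less, at 11, 10, 14 and 11 UMIs in the members against 13, 11, 24 and 25, and on the low-resolution plates the typical member and the typical comparison well were close.

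Promoters of genes with large falls and rises are shown because the members of these lists moved together. They are the 250 bases before the annotated gene start in RefSeq (GRCh38.p14, given 5′ to 3′ on the strand of the gene), with motif matches in capitals. PLK1 lies at chr16:23678639-23678888 and CCNB2, the mitotic cyclin B2, at chr15:59104896-59105145, both on the plus strand, with the cell cycle genes homology region TTTGAA and the CCAAT box, CCAAT, in capitals where they read on that strand or its complement.
PLK1: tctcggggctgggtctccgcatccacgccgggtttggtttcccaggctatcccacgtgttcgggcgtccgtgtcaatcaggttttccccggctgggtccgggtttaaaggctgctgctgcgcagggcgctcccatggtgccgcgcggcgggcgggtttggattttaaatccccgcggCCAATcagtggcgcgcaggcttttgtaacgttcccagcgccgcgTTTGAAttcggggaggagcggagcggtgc
CCNB2: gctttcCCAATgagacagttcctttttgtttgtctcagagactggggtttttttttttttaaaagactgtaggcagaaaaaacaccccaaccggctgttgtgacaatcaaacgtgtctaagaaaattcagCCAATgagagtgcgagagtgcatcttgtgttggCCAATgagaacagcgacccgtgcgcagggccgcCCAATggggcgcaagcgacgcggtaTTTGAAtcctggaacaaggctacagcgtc
Both carry TTTGAA starting 29 bases before the gene start, PLK1 with 1 and CCNB2 with 4 CCAAT boxes. Over all lists, 23 of 44 G2 and mitosis genes with a promoter in the table held TTTGAA (52.3%) and 2 of 31 S-phase genes (6.45%), against 13.6% of 27305 promoters and 8.26% of the 8730 among them that belong to genes tested, while CCAAT occurred in 68.2% and 71.0% of the 2 lists and in 33.0% of all promoters and 35.6% of those of the genes tested. These shares describe letters in a window and say nothing about binding.

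MT2A at chr16:56608334-56608583 and SPRR1B at chr1:153030953-153031202, both on the plus strand, are shown as the most abundant of the 10 largest falls, with a mean of 2299 CPM, and as the largest rise. In MT2A the capitals mark the core of the metal response element, TGCACNC or TGCGCNC on either strand, and in SPRR1B they mark the AP-1 site TGANTCA. Each window is marked for its own motif only.
MT2A: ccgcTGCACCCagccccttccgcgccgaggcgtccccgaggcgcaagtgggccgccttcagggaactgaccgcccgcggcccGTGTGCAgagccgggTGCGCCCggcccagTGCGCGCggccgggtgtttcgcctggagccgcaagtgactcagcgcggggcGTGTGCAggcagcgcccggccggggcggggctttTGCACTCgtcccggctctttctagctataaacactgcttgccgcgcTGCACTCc
SPRR1B: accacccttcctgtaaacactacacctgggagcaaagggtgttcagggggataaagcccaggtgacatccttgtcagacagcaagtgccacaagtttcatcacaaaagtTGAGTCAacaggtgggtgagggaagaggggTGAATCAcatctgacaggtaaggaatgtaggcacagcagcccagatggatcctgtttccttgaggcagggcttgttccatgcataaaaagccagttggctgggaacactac
The MT2A window holds 7 metal response cores, which occur in 24.7% of all promoters and 33.5% of those of the genes tested, and both metallothioneins in the table held at least 1. The SPRR1B window holds 2 AP-1 sites, at 141 and 111 bases before the start. An AP-1 site occurred in 6 of 12 genes of the squamous list with a promoter in the table (50%) against 6.60% of all promoters and 3.93% of those of the genes tested. It also occurred in 1 of 2 metallothioneins. This was MT2A, whose window holds TGACTCA in lower case, so the site is not particular to genes that rose.

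The squamous list held more genes that rose than fell. Of 20 genes of the cornified envelope and stratified epithelium tested, 14 rose, 2 fell and 4 did not pass, with a median log2 fold change of 0.96. Besides SPRR1B and IVL, the desmosome genes DSP, DSG3 and DSC2 and the envelope plakins PPL and EVPL were among those that rose. The 2 that fell were KRT6A and KRT6B, keratins of activated keratinocytes, with a log2 fold change of -0.70 ± 0.13 (SE) for KRT6A, which was higher in the members on high-resolution replicate 1 (3679 against 3559 CPM) and lower on the other plates. KRT16, another keratin of this kind, rose by 0.37 ± 0.12 on the log2 scale (SE). In depth-matched wells 12 of 18 rose and 2 fell. The summed list stood at 5586, 4928, 7832 and 6118 CPM in the members and 5165, 5104, 5416 and 5393 CPM in the comparison wells, with 1 plate lower and 3 higher.

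Metal response and antioxidant genes fell where they changed. Of 23 tested 11 fell and none rose, with a median log2 fold change of -0.28. They included MT2A, MT1E, the haem oxygenase HMOX1 and the ferritin genes FTL and FTH1. MT1E had 72.4, 44.3, 82.9 and 59.2 CPM in the members and 193, 217, 263 and 331 CPM in the comparison wells (log2 fold change -1.96 ± 0.15, SE).

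The translation apparatus was lower by a modest factor. Of 83 cytosolic ribosomal protein genes 53 fell and none rose, with a median log2 fold change of -0.31, and the summed list stood at 75537, 95459, 87522 and 94849 CPM in the members and 104850, 110610, 104730 and 112920 CPM in the comparison wells. Of 26 translation factors 11 fell and 1 rose, and of 32 splicing and RNA-binding genes 19 fell and 3 rose, the latter being SRSF5, SRSF11 and RBM39. Cytoskeletal and adhesion genes fell in 17 of 28 and rose in 2. TUBA1B, an alpha-tubulin, had 601, 384, 1102 and 736 CPM against 1919, 1792, 2595 and 3044 CPM (log2 fold change -1.79 ± 0.13, SE).

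Nuclear genes for subunits of the respiratory chain passed the test in few cases. Of the 37 tested complex I subunits 2 rose and none fell, with a median log2 fold change of 0.02, the same as over all genes. That is a smaller share of rises than the 12.4% over all genes. None of 13 subunits of complexes II and III and none of 16 subunits of ATP synthase passed the test. In complex IV, 4 of 11 rose (COX6A1, COX5B, COX6C and COX6B1), none fell and the median was 0.22, and COX6A1 had 1439, 2138, 1996 and 2041 CPM in the members against 1361, 1503, 1396 and 1184 CPM. Without low-resolution replicate 1, 8 of 11 complex IV subunits rose, with a median of 0.33, where 10.5% of all genes rose. The summed complex IV list was lower in the members on that plate (log2 ratio -0.06) and higher on the other 3 (0.27, 0.35 and 0.53). Over the 4 plates, 3 of 11 complex IV subunits rose in depth-matched wells (median 0.23) and 2 of 11 after thinning to 5000 UMIs (0.18). The shares over all genes were 6.26% and 6.1% in these settings. In wells matched in EMT score, a comparison given below, none of 11 passed and the median was 0.0002. With matching in EMT score and cell cycle UMIs none of 11 passed either (median 0.04). Of all genes, 2.99% rose with matching in EMT score and 0.206% with matching in both. At such shares, the absence of calls among 11 subunits does not set the list apart.

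Of 26 genes of mitochondrial gene expression 3 fell and 1 rose, a share of falls no larger than that over all genes, and in depth-matched wells none of 18 fell and 1 rose. TFAM, which packages and transcribes mitochondrial DNA, fell by 0.64 ± 0.16 on the log2 scale (SE, adjusted p = 0.00664 in edgeR), with 52.9, 47.9, 46.8 and 35.2 CPM against 70.6, 63.0, 69.5 and 83.3 CPM. SLIRP, which stabilises mitochondrial messenger RNA, and SSBP1, the single-stranded DNA-binding protein, also fell, while PPARGC1B, a coactivator of mitochondrial biogenesis, rose by 1.05 ± 0.21 (SE). Of 76 mitochondrial ribosomal proteins 14 fell and 1 rose, and of 26 import factors and chaperones 11 fell and none rose, among them the chaperonin HSPD1 (log2 fold change -0.66 ± 0.09, SE). In depth-matched wells 2 of 75 mitochondrial ribosomal proteins and 3 of 25 import factors and chaperones fell, and none rose. Over all genes, 13% fell against all comparison wells and 6.28% in depth-matched wells. For the mitochondrial ribosomal proteins the share of falls was not far above the first of these and was below the second.

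Programmes of cell death and stress did not move as blocks. Of 29 apoptosis and p53 target genes, 4 rose and 1 fell, with a median log2 fold change near 0 at 0.05, and BCL2L11, the pro-apoptotic protein BIM, had 74.4, 68.3, 74.9 and 88.0 CPM against 41.1, 46.3, 38.4 and 32.4 CPM (log2 fold change 0.95 ± 0.16, SE). Of 25 genes of the integrated stress response 7 fell and none rose, and PSAT1, an enzyme of serine synthesis, fell by 1.04 ± 0.13. Heat shock genes split: 6 of 12 fell, including the chaperones HSPA8 and HSP90AA1, and HSPB1 and CRYAB, both small heat shock proteins, rose. The median of that list was -0.28, while its summed CPM was higher by 0.08 ± 0.10 on the log2 scale (SD, n = 4 plates), so the sign differs between them. Immediate early genes, which respond within minutes to handling and signals, rose in 5 of 24 (FOS, FOSB, JUN, JUND and DUSP1) and fell in 3 (FOSL1, CYR61 and CTGF). Mitophagy genes (1 up and 1 down of 16), interferon-stimulated genes (2 up and 2 down of 16) and glycolysis and hypoxia genes (6 up and 5 down of 25) moved in both directions. Among all genes tested, 12.4% were higher and 13% lower. The rises of the apoptosis list, the falls of the immediate early list and the calls of the interferon list were near these shares. Mitophagy calls lay below them, so none of these counts sets its list apart.

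**Figure D3:**
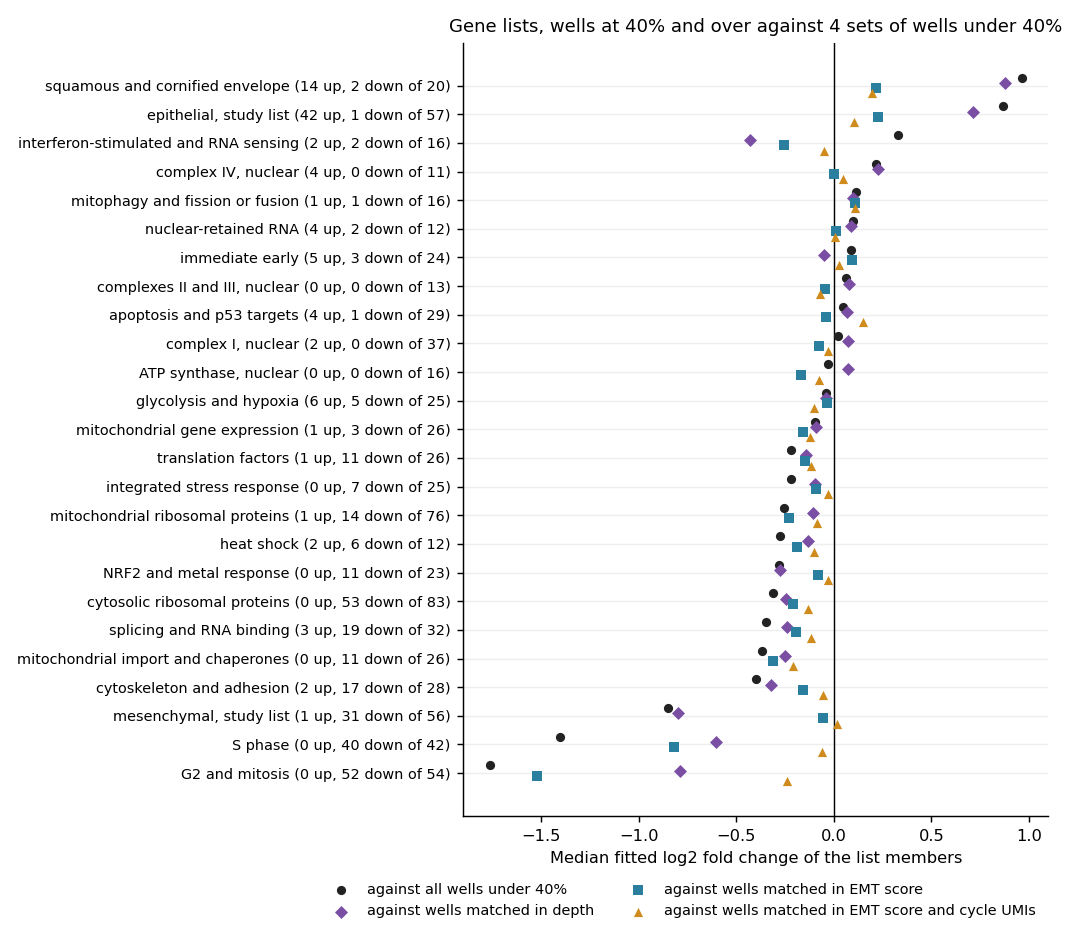
Median fitted log2 fold change of each gene list for wells at 40% and over against all wells under 40% (circles), wells matched in depth (diamonds), wells matched in EMT score (squares) and wells matched in EMT score and cell cycle UMIs (triangles); the labels give the genes called against all wells under 40%. The G2 and mitosis list is at -1.76 against all wells, -0.79 after matching in depth, -1.52 after matching in EMT score and -0.24 after matching in EMT score and cell cycle UMIs.

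The list of nuclear-retained RNAs was split. Long noncoding RNAs such as MALAT1 and NEAT1 reside in nuclear speckles and paraspeckles and are not exported for translation. Where the other listed RNAs reside was not measured, and not all of them need be nuclear. The split is therefore not one among RNAs known to be retained. Of 12 listed RNAs tested 4 rose (MALAT1, NEAT1, KCNQ1OT1 and TUG1), 2 fell (SNHG1 and SNHG5, both spliced hosts of small nucleolar RNAs) and 6 did not pass, with a median log2 fold change of 0.10. MALAT1 had 19963, 9466, 9409 and 7611 CPM in the members and 9183, 5406, 4486 and 3996 CPM in the comparison wells (log2 fold change 0.98 ± 0.09, SE, adjusted p = 3.19e-07 in edgeR). NEAT1 had 4578, 2204, 2544 and 2056 CPM against 2064, 1247, 1256 and 1120 CPM, and KCNQ1OT1, the antisense transcript of an imprinted locus, had 695, 278, 324 and 216 CPM against 286, 176, 169 and 155 CPM. Each was higher on 4 of 4 plates, although the plates differ so much that the sums of the classes overlap.

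Members were next compared with wells of the same EMT score, since the score itself differed between the classes. With 1 comparison well per member and 148 wells in each class, 236 of 7899 genes (2.99%) were higher and 367 (4.65%) lower, against 493 and 495 when the wells were matched in depth. Depth itself was not matched here. The ratio of median non-mitochondrial counts, members over matched wells, was 0.740 ± 0.107 (SD, n = 4 plates). The epithelial and mesenchymal lists were used for the matching, so their smaller differences (5 up and 1 down of 52, and 1 up and 1 down of 27) are set by it. Cell cycle genes were lower again: 43 of 49 G2 and mitosis genes and 16 of 28 S-phase genes fell. MALAT1 (log2 fold change 0.88), NEAT1 (1.04) and KCNQ1OT1 (0.99) were higher. The squamous list was reduced to 2 up and 3 down of 19, with a median of 0.21: SPRR1B was higher by 1.34 and SPRR3, at 0.43, did not pass. MT2A had a log2 fold change of -0.85. For EPCAM and FN1 the sign turned, at -0.14 and 0.04, and neither passed.

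When wells were matched in EMT score and in UMIs of the cell cycle lists together, 16 of 7768 genes (0.206%) were higher and 4 (0.0515%) lower, where unadjusted p-values under 0.05 numbered 469 and 367. This comparison was added after the data had been seen. Depth was not matched in it either, with a ratio of median non-mitochondrial counts of 0.799 ± 0.150 (SD, n = 4 plates). The genes that were higher included MALAT1 (log2 fold change 0.56), NEAT1 (0.77) and KCNQ1OT1 (0.75), the ribosomal RNA precursor RNA45S5 (0.94), SPRR1B (0.81), RARRES1, a retinoid-responsive membrane protein (0.70), SAT1, the polyamine acetyltransferase (0.46), and CD36, a fatty acid receptor (1.88). MTRNR2L1 (0.85) is a nuclear copy of the mitochondrial gene MT-RNR2, and reads of the 2 may not have been told apart. The 4 genes that were lower were DLGAP5 and STMN1, both of the mitotic spindle, TUBA1B, and HHLA2, an immune checkpoint ligand that was not called against all comparison wells. These genes were chosen after their values were seen. The G2 and mitosis list kept 1 call of 35 and the S-phase list none of 22, which the matching on those genes itself sets. For the cytosolic ribosomal proteins, which were not used in matching, none of 81 fell, with a median log2 fold change of -0.13. Fits of the same form gave 31 of 81 in depth-matched wells (median -0.25) and 15 of 81 in EMT-matched wells (-0.21).

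Levels were also followed over ranges of the mitochondrial share, as a description without a test. The epithelial list rose from 9897 ± 644 CPM in wells under 30% to 13498 ± 806 between 30% and 40% and 18446 ± 785 between 40% and 50%, and stood at 17985 ± 1064 at 50% and over (SD, n = 4 plates). The gradient thus began among wells that the limit keeps. The G2 and mitosis list fell from 6031 ± 594 over 3839 ± 677 to 1704 ± 692 CPM between 40% and 50%, and was 2720 ± 405 at 50% and over, where it was higher than in the range below on 3 of 4 plates. SPRR1B peaked between 40% and 50% at 509 ± 267 CPM and was 144 ± 120 at 50% and over, lower on 4 of 4 plates. Under 30% and between 30% and 40% it stood at 68.0 ± 36.9 and 119 ± 30.8 CPM. With the limit moved to 50%, its log2 fold change was -0.16 and did not pass. The wells between 40% and 50% were then among the comparison wells.

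MALAT1, NEAT1 and KCNQ1OT1, chosen here after their values were seen, followed another course, while SNHG1 of the same list did not (232, 186, 113 and 221 CPM over the 4 ranges). NEAT1 had 1212 ± 524, 1657 ± 412, 2290 ± 733 and 5646 ± 2437 CPM over the 4 ranges and rose from range to range on 4 of 4 plates, as did KCNQ1OT1. MALAT1 had 4495 ± 2222, 7321 ± 2833, 10190 ± 4777 and 19832 ± 7526 CPM and rose at each step on 3 of 4 plates, while on high-resolution replicate 1 the last range did not exceed the one before. Metal response and antioxidant genes summed fell at each step on 4 of 4 plates, from 22854 ± 248 to 11615 ± 2975 CPM. Wells at 50% and over therefore differed from those between 40% and 50% in RNA content, in SPRR1B and in NEAT1.

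**Figure D4:**
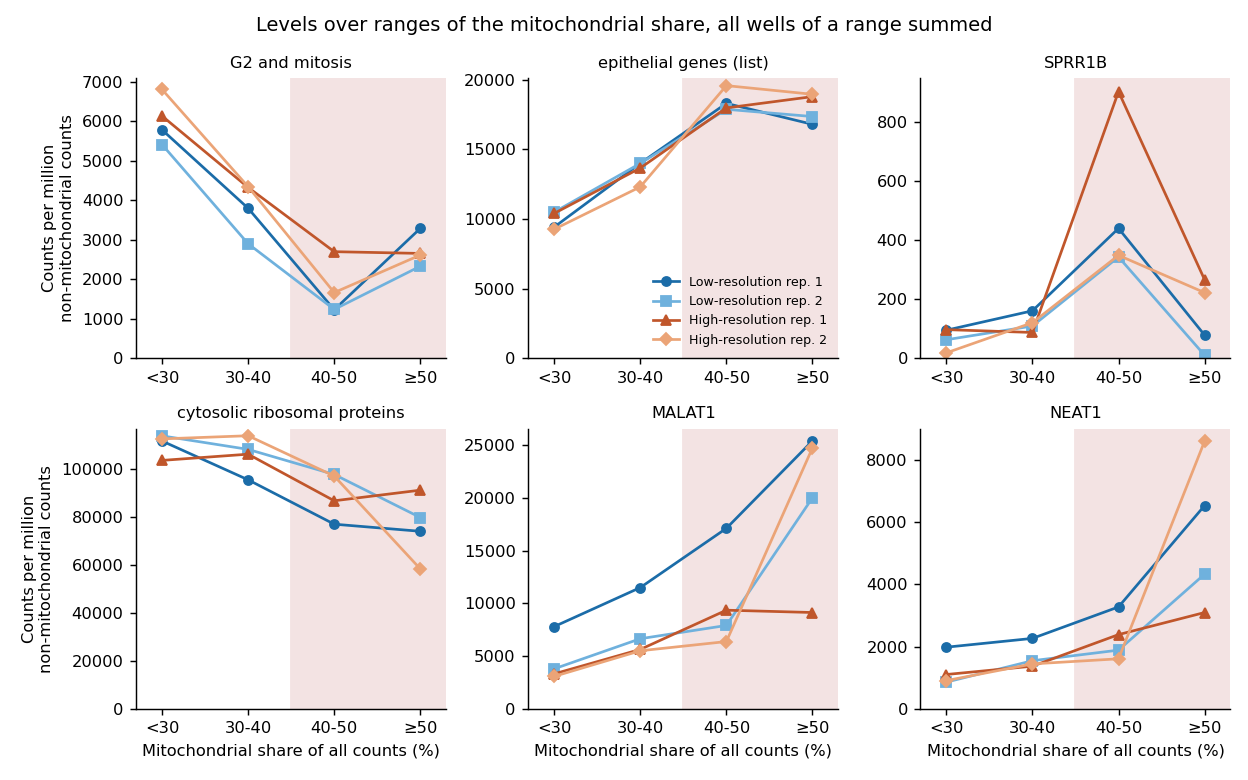
Levels in CPM over 4 ranges of the mitochondrial share for the G2 and mitosis list, the epithelial list, SPRR1B, the cytosolic ribosomal proteins, MALAT1 and NEAT1, with 1 line per plate and the members' ranges shaded. The epithelial list climbs to about the same level on every plate, SPRR1B peaks between 40% and 50%, and NEAT1 is highest at 50% and over on every plate.

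The difference between members and comparison wells was larger in the high-resolution experiment for 18 genes, of which ELF3 is on the epithelial list and SPRR1B, SPRR3 and LCN2 are on the squamous list. An interaction of class with experiment passed for 18 of 11385 genes (0.158%) in the direction of a larger rise in high resolution and for none (0%) in the other, with 754 genes at an unadjusted p under 0.05 in edgeR and 12 calls in DESeq2. SPRR3, another cornified envelope gene, had 94.0 and 45.5 CPM in the members of the low-resolution plates against 65.6 and 39.5 CPM, and 131 and 107 CPM in the high-resolution plates against 22.2 and 11.7 CPM. Its interaction was 2.47 ± 0.29 on the log2 scale (SE, adjusted p = 0.00015 in edgeR). LCN2 had 143 and 140 CPM against 87.0 and 82.7 CPM in low resolution, and 186 and 214 CPM against 36.6 and 25.4 CPM in high resolution (interaction 1.96 ± 0.25, SE, adjusted p = 0.000248 in edgeR).

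The tissue kallikreins KLK5, KLK6, KLK7 and KLK10, proteases of the stratified epithelium, and KRT10, a keratin of differentiating layers, showed the same pattern. KRT10 had 2487 and 2479 CPM against 1377 and 1591 CPM in low resolution, and 3310 and 2455 CPM against 936 and 644 CPM in high resolution. In SPRR3, LCN2, KRT10 and the 4 kallikreins, the comparison wells of both high-resolution plates lay below those of both low-resolution plates, while SPRR1B was an exception among the 18 genes. The experiments differ in the bands that were tagged, and low-resolution replicate 1 was also sequenced on another flow cell than the other 3 plates, as the deposited names give it. Without low-resolution replicate 1, 22 genes passed, 21 of them with a larger rise in high resolution. At 5000 UMIs only RARRES1 and SRD5A3 passed.

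**Figure D5:**
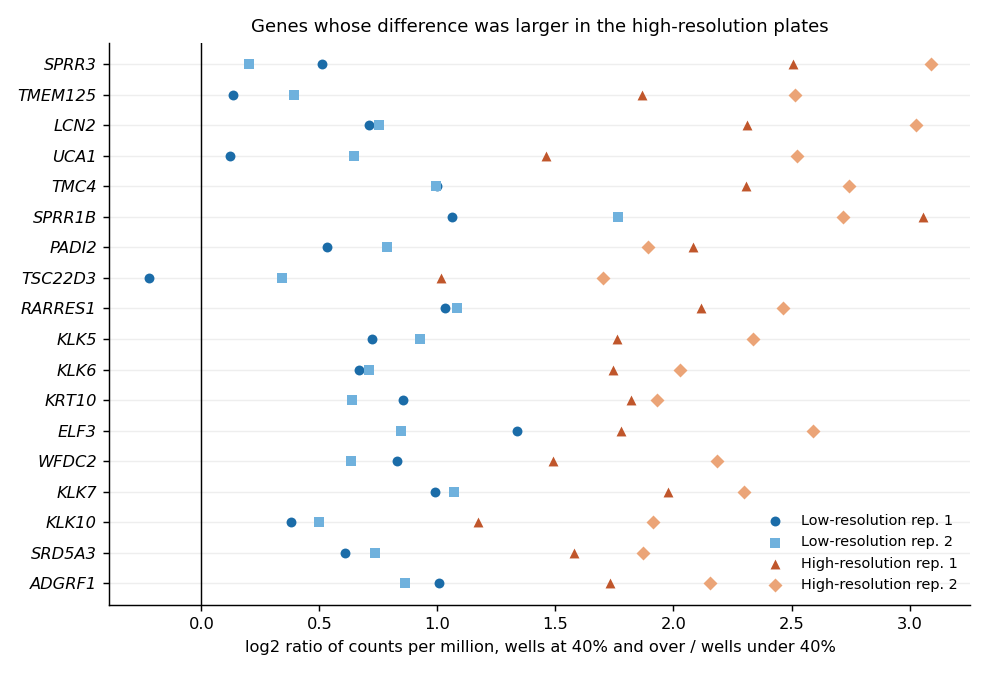
The log2 ratio of CPM between wells at 40% and over and wells under 40% for the 18 genes whose difference was larger in the high-resolution plates, 1 point per plate. For each gene both high-resolution points lie to the right of both low-resolution points.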

How the data were processed

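Single cells of 4 patches were sorted into 1 plate of 384 wells each and sequenced by SORT-seq. The authors deposited expected counts per gene and well, that is, molecule counts corrected for chance collisions among 4096 UMI sequences, and all 7245730 values above 0 corresponded to whole UMIs within 1e-06. The submitters' processing notes name STAR 2.7.3a, Seurat 4 and the build hg38. Plate totals are given in the report.

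MT- (37) and spike-in (81) rows were left out, counts were summed per plate and class and rounded, and the 8 sums were compared with edgeR 4.0.16 (R 4.3.3; quasi-likelihood test, TMM, filterByExpr, Benjamini-Hochberg adjusted p under 0.05). The plate was the block, since both classes of a plate share a patch and a library; replicate numbers pair nothing across experiments. SE was derived from the fold change and the F value. Measures per well were compared by exact sign-flip permutation over 4 plates, where p cannot fall below 0.13. The plates of an experiment are biological replicates, as the study states. Wells were thinned to 5000 or 2500 UMIs with seed 1. Doublets were not called. On simulated counts for 11385 genes at a dispersion of 0.01, the fit recovered 74% of genes changed by 1 and 91% of those changed by 2 on the log2 scale, with 10 false calls. At a dispersion of 0.05 it recovered 40% and 88%, with 4 false calls. The common dispersion fitted to the data was 0.0128.

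Genes were named as the 10 largest rises and falls with a mean of at least 50 CPM among those called and changed the same way on every plate, leaving out clones, antisense and LINC transcripts, pseudogenes and nuclear copies of mitochondrial DNA. Added to these were up to 4 called genes per list with the largest change, CDH1, EPCAM, VIM, FN1 and the MT- genes. Other list members and the genes in matched wells were named after their values were seen. The members and lists were chosen with earlier results of these data known. Alternatives were other normalisation, filters, limits, depths, matched wells, DESeq2 1.42.0 and leaving out each plate, and matching in EMT score and cell cycle was added after seeing the data.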

Additional observations from a re-analysis of the deposited data

Results flagged for a closer look

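Among 113 sets of 4 plate values examined, 9 had 1 plate far from the other 3 (by Dixon's 95% limit on the gap over the range), and chance gives about 5% of such sets. On high-resolution replicate 2 the log2 ratio between members and comparison wells was 0.69 for NDUFA3, a complex I subunit, with 0.15 to 0.24 on the other plates. On the same plate it was 0.95 for the p53 target TP53I3 (others 0.33 to 0.37), 1.84 for CDH1 (1.07 to 1.14), -4.22 for the mitotic checkpoint kinase BUB1 (-2.05 to -1.98) and -3.43 for SAMSN1 (-1.55 to -1.26). On high-resolution replicate 1 it was -2.19 for FAM64A (-2.39 to -2.37). On low-resolution replicate 1 it was -0.75 for EIF3E (-0.45 to -0.40) and -0.59 for EIF3L (-0.42 to -0.41), both subunits of an initiation factor, and on low-resolution replicate 2 it was -2.88 for RPL39L (-1.05 to -0.80).

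The difference between members and comparison wells differed between the experiments, by the interaction term in edgeR, for 18 genes. On the log2 scale the rise was larger in high resolution by 2.47 for SPRR3, 1.47 for SPRR1B, 1.96 for LCN2, 1.13 for KRT10, 1.22 for KLK5, 1.20 for KLK6, 1.11 for KLK7 and 1.10 for KLK10. It was larger by 1.23 for RARRES1, 1.59 for the long noncoding RNA UCA1, 1.34 for PADI2, 1.59 for TMC4, 1.11 for WFDC2, 1.06 for SRD5A3, 1.02 for ADGRF1, 1.12 for ELF3, 1.29 for TSC22D3 and 1.99 for TMEM125.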

How the results depend on the processing

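The EMT score was lower in the members under all alternatives run for it. The difference in genes found per well stayed above 0 on average, but at 2500 UMIs it was positive on 2 of 4 plates only. Against 1415 higher and 1475 lower genes, matching wells gave 493 and 495 (depth), 236 and 367 (EMT score) and 16 and 4 (EMT score and cell cycle). Thinning gave 499 and 549 at 5000 UMIs and 382 and 333 at 2500. A share of coding mitochondrial genes alone gave 584 and 835, a limit of 50% gave 380 and 469, and a limit of 45% gave 812 higher. Without the replicate block, that is, without pairing by plate, 769 and 800 passed. Leaving out a plate gave 914 to 1196 higher (914 without high-resolution replicate 1 and 922 without replicate 2) and 1148 to 1352 lower. Genes that differed between experiments numbered 58 with no filter on low counts, 2 at 5000 UMIs and 22 to 74 with a plate left out (72 without high-resolution replicate 1 and 74 without low-resolution replicate 2), against 18. The ratio of non-mitochondrial counts per well, 0.600, was 0.457 at 45%, 0.308 at 50%, 0.372 with coding genes alone and 0.687 from 3000 features, and 0.561 to 0.628 with a plate left out. Per spike-in count it was 0.299 at 50% and 0.398 with coding genes alone, and the mitochondrial ratio, 1.34, was 1.13 at 50% and 1.52 against wells under 30%. The sign turned, with no call, at 50% for SPRR1B (-0.16), COX5B (-0.14), COX6C (-0.087), COX6B1 (-0.19), TP53I3 (-0.029), FOS (-0.46), SNHG1 (0.025) and OAS3 (0.20), and at 2500 UMIs for NDUFV1 (-0.16) and TFAM (0.10). It turned in EMT-matched wells for HMOX1 (0.12), AKR1C1 (0.15), EPCAM (-0.14) and FN1 (0.036), and in EMT- and cycle-matched wells for PPARGC1B (-0.081), AKR1C1 (0.32), EIF5A (0.0055), EPCAM (-0.046) and FN1 (0.084). The cause was not tested. Only 4 plates were available, so no permutation over plates can pass 0.05, and the range at 50% and over rests on 6 wells of high-resolution replicate 2.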

Other observations

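Outside the feature range, 222 wells had fewer than 2000 rows above 0, and mitochondrial rows held 40% or more of the counts in 110 of them. By plate these were 38 of 51, 35 of 63, 31 of 50 and 6 of 58 wells, with median shares over all wells below the range of 64.2%, 42.8%, 47.6% and 25.7%. High-resolution replicate 2 was thus low in such wells as well as in members. Of the 167 members, 74 also reached 40% with the 13 coding genes alone.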
